A study of Saccharomyces cerevisiae with 6 samples.

Results

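The comparison described here is that of dal80Δ cells with wild-type cells of Saccharomyces cerevisiae, both grown on proline as the nitrogen source, across all protein-coding genes. The members are the gene features of the deposited table with a systematic name of an open reading frame (ORF). They number 5791 of the 11987 features, after 4 ORFs of the resident plasmid were left out, and 5645 of them had enough reads to be tested. RNA was depleted of rRNA and sequenced with its strand kept, in 2 biological replicates each of dal80Δ in proline, wild type in proline and wild type in glutamine. The glutamine group is used only to estimate the spread and to give levels side by side.

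The dal80Δ cells are MATa and carry kanMX, a drug resistance cassette, in place of the DAL80 ORF. The wild-type cells are MATα according to the strain list of the study, and the labels of the libraries do not give a mating type. Both strains share ura3, his3 and trp1 mutations, and all cultures were in minimal glucose medium with uracil, histidine and tryptophan added and were harvested in mid-log phase. Each genotype is represented by a single strain. Mating type and the state of DAL80 are therefore the same grouping of these libraries, and their parts in any difference below cannot be told apart.

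Yeast takes up and breaks down poor nitrogen sources such as proline, allantoin, urea or γ-aminobutyrate (GABA) only when richer ones are missing, a control named nitrogen catabolite repression (NCR). It acts through GATA factors, zinc finger proteins that bind GATA letters in promoters. Gln3 and Gat1 activate, Dal80 and Gzf3 repress, and the promoters of DAL80, GAT1 and GZF3 are themselves read by GATA factors. Following the terms of the field, genes higher in dal80Δ may be called Dal80-repressed and genes lower in dal80Δ Dal80-activated. Both terms stand here for the direction of a difference between these 2 strains.

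Values are scaled reads, that is, uniquely mapped reads on the ORF multiplied by a factor that the authors set for each library. The libraries hold 14782341 and 19968312 reads on ORFs in dal80Δ and 12550777 and 12304015 in wild type in proline, and log2 values of replicates correlated across ORFs with r of 0.9912 in dal80Δ and 0.9891 in wild type. Reads on the mitochondrial genome made up 3.83 ± 0.80% of ORF reads in dal80Δ and 5.72 ± 0.67% in wild type (SD, n = 2 each). In these bulk cultures, less RNA of a gene in each cell and fewer cells that express it cannot be told apart.

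The targeted gene was examined first. DAL80 (YKR034W, chromosome 11, 506898 to 507707, plus strand, build R64) had 6.15 and 2.75 scaled reads in dal80Δ, against 3537 and 2729 in wild type. These are 9 and 5 reads in dal80Δ, so the wild-type level was 734 times that of dal80Δ, with a 95% counting interval of 438 to 1343. Limits and intervals of this kind cover counting error only, because the reads carry no molecular identifiers. None of the neighbouring genes was called. DID2, next to the deletion, had 451 and 446 scaled reads in dal80Δ, against 236 and 236 in wild type (log2 fold change 0.92 ± 0.18 (SE), limma adjusted p = 0.0094). On the same scale SPO14, on the other side, differed by 0.08 ± 0.15, GMH1 by -0.43 ± 0.13 and CAF4 by -0.86 ± 0.19.

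Promoter sequences are shown for genes that the results turn on, since a GATA factor acts through the letters of the promoter. The following 250-base stretches are read 5′ to 3′ on the strand of the gene, from the R64 reference genome of RefSeq, with matches to GATAAG or GATTAG on either strand in capitals (CTTATC and CTAATC are the same letters on the other strand). DAL80 and GAP1 are shown for the repressor gene and a general amino acid permease gene, UGA3 for an activator gene that was lower in dal80Δ, all from 350 to 101 bases before the start codon. UGA4, the GABA permease gene, is shown from 500 to 251 bases before its start codon, a window chosen because the nearer one holds neither motif.
UGA4 (chr4:83770-84019, plus strand): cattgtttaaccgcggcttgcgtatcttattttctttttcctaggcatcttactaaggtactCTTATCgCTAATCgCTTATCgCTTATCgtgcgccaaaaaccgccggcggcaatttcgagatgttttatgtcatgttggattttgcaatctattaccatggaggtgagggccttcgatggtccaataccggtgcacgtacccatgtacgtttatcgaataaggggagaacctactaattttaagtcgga
DAL80 (chr11:506548-506797, plus strand): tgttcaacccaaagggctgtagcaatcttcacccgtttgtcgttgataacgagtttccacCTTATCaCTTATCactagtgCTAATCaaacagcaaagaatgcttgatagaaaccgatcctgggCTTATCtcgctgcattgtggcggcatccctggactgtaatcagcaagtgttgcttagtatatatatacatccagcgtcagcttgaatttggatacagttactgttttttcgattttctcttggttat
GAP1 (chr11:514713-514962, plus strand): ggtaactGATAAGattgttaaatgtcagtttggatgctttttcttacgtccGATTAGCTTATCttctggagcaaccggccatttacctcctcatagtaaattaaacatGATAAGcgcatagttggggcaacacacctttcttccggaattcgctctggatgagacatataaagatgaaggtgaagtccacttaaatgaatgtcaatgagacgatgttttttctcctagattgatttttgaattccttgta
UGA3 (chr4:155968-156217, plus strand): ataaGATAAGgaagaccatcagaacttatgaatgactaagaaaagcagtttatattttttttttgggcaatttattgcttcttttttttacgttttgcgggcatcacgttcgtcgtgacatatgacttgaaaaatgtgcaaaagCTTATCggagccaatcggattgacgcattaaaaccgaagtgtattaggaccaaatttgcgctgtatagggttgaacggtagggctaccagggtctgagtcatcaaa
UGA4, DAL80 and GAP1 each hold 3 matches to GATAAG and 1 to GATTAG, and UGA3 holds 2 to GATAAG. In UGA4 the 4 matches lie in a row, with their first bases between 438 and 417 bases before the start codon. A match is a description of the letters and not evidence of binding.

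A gene was called when its Benjamini-Hochberg adjusted p in limma over all tested genes was at most 0.01 and its log2 fold change, on the log2(scaled reads + 1) scale, was at least 1 in size. In dal80Δ, 203 of 5645 genes were higher (3.6%) and 250 were lower (4.43%), 453 in all (8.02%). Whether called or not, 3081 of the 5645 had a log2 fold change above 0 and 2564 had one below 0. These shares are the background for all counts of list members below. The genes higher in dal80Δ had a median of 1784.3 scaled reads in dal80Δ and 495.5 in wild type, and the genes lower in dal80Δ had a median of 313.2 scaled reads in dal80Δ and 1165.8 in wild type. Among them 65 rose and 75 fell at least 4-fold, and 17 rose and 27 fell at least 8-fold. The libraries of the 2 strains did not overlap for any called gene, but they overlapped for only 1589 of all 5645 tested genes. Of the called genes, 55 of those that rose and 58 of those that fell had a log2 fold change under 1.2 in size.

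**Figure D1:**
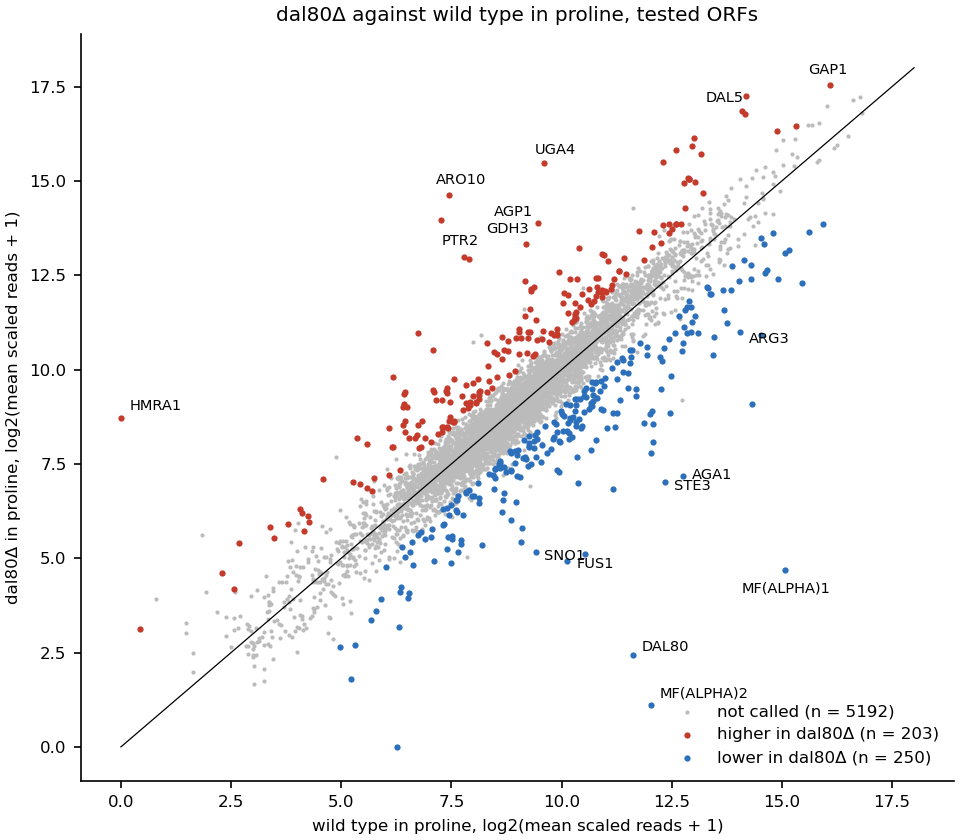
Mean scaled reads of 5645 tested ORFs in dal80Δ (vertical axis) against wild type (horizontal axis), both in proline and as log2(mean scaled reads + 1). Each point is an ORF, with the 203 genes higher in dal80Δ and the 250 lower in dal80Δ in colour. The genes farthest above the diagonal are HMRA1, ARO10, ARO9 and UGA4, and those farthest below it are MFα2, MFα1 and DAL80.

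The split between directions depends on the scaling. With libraries scaled to their total of ORF reads, 139 genes were higher and 440 lower, and the median log2 fold change of all tested genes moved to -0.21, against 0.05 with the deposited factors. Scaling by ORF totals is what the methods of the study describe. The deposited factors do not make these totals equal. Scaled ORF reads summed to 10094130.3 and 10996271.9 in dal80Δ, against 8604251.9 and 9010302.1 in wild type in proline. With a library left out, 75 genes were higher and 126 lower without dal80Δ replicate 1, 91 and 151 without dal80Δ replicate 2, 104 and 159 without wild-type proline replicate 1, and 163 and 190 without wild-type proline replicate 2. In all fits that left out a library, 66 of the higher and 117 of the lower genes kept their call, and no called gene that is named below turned its direction in any alternative.

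The mating genes are described first, because the strains differ in mating type. The genes that only α cells use were at a small fraction of their wild-type level in dal80Δ, and the genes that both haploid types raise when they sense pheromone were low as well. MFα1, the main α-factor gene, had 23.9 and 25.9 scaled reads in dal80Δ, against 38242 and 30843 in wild type (named MF(ALPHA)1 in the files, log2 fold change -10.37 ± 0.14, adjusted p = 3.2e-08). MFα2 (MF(ALPHA)2), the minor α-factor gene, had 1 and 3 reads in dal80Δ, so the wild-type level was 3411 times as high, with a 95% counting interval of 1332 to 12518. STE3, the receptor for a-factor, had 121 and 135 scaled reads in dal80Δ, against 5673 and 4734 in wild type. All 5 α-specific genes fell, with a median log2 fold change of -5.33, and their summed level was 812.6 and 812.3 scaled reads in dal80Δ, against 75252.7 and 58320.1 in wild type.

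Genes of a cells did not form a mirror image of this. HMRA1, the a1 gene of the silent cassette, whose reads cannot be told from those of a MATa locus, had 343 and 498 scaled reads in dal80Δ and no reads in either wild-type library. It was at least 156-fold higher in dal80Δ, against a floor of 3 reads per library. MFA1 and MFA2, the a-factor genes, had 1259 and 1443, and 1256 and 1693, scaled reads in dal80Δ, against 354 and 388, and 123 and 144, in wild type. The wild-type libraries thus hold a-factor reads in proline, while MFA1 had only 4 and 4.92 scaled reads in wild type in glutamine. STE6, the a-factor exporter, had 1373 and 1438 scaled reads in dal80Δ, against 369 and 333 in wild type. STE2, the α-factor receptor, had 1894 and 2034 in dal80Δ, against 1131 and 918 in wild type, a log2 difference of 0.95 ± 0.16 that lies just below the fold threshold. Of the 7 a-specific genes 3 rose and none fell, and the 4 others (STE2, BAR1, AGA2 and ASG7) were not called. Of the 7 log2 differences 5 were above 0 and 2 below, those of AGA2 and ASG7, with -1.11 as the lowest. AGA2 was called lower with edgeR, with DESeq2, with ORF totals for scaling and with the 4 proline libraries alone. The a-specific genes summed to 6134.7 and 6983.8 scaled reads in dal80Δ, against 2510.5 and 2196.9 in the wild-type proline libraries, and none of the 7 was at 0 in any of these libraries. Wild type in glutamine had 193 and 241.9 for the same sum. Of the 6 cassette genes 1 rose and 4 fell, and 2 fell without dal80Δ replicate 1, dal80Δ replicate 2 or wild-type proline replicate 1. Copies at MAT, HML and HMR share sequence and their reads are uncertain, and the reference genome carries MATα.

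Of 19 pheromone-response genes 15 fell and none rose, with a median log2 fold change of -2.44 (13 to 15 fell when a proline library was left out). FUS1, which acts in cell fusion, had 32.1 and 27.0 scaled reads in dal80Δ, against 1396 and 844 in wild type. AGA1, the anchor of agglutinin, had 165 and 125 in dal80Δ, against 8034 and 5894 in wild type. PRM6 had no reads in either dal80Δ library, against 91.2 and 60.8 scaled reads in wild type, and was at least 29.7-fold lower in dal80Δ against the floor of 3 reads per library. SST2, which damps the pheromone signal, had 249.9 and 189 scaled reads in dal80Δ, against 5041 and 3311 in wild type, and FAR1, which arrests the cell cycle on pheromone, had 398 and 368, against 4218 and 3254. The G protein gene GPA1 (log2 fold change -1.56 ± 0.13) and the kinase gene FUS3 (-2.04 ± 0.11) fell, whereas STE5, the scaffold of the kinases, had 968 and 754 in dal80Δ, against 887 and 901 in wild type, and was not called, and neither were the other G protein genes STE4 and STE18. FAR1, GPA1, FUS3, STE5, STE4 and STE18 belong to a separate list of 11 haploid-specific genes, of which 5 fell and none rose. The median log2 fold change of this list was -0.66, and -0.90 to -0.59 in the fits without a proline library. In total 4 of the 203 genes higher in dal80Δ and 29 of the 250 lower in dal80Δ stand in a mating list, which leaves 199 and 221.

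The upstream stretches of FUS1 and PRM1 are shown because they hold several copies of TGAAACA, the letters of the pheromone response element, given in capitals with its other-strand form TGTTTCA. They are stretches of the same kind, from 350 to 101 bases before the start codon.
FUS1 (chr3:71453-71702, plus strand): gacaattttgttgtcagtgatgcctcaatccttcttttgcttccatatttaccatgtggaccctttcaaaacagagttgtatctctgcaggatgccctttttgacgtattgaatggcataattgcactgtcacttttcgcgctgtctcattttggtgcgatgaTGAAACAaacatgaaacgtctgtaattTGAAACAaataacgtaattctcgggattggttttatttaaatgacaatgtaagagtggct
PRM1 (chr14:110567-110816, plus strand): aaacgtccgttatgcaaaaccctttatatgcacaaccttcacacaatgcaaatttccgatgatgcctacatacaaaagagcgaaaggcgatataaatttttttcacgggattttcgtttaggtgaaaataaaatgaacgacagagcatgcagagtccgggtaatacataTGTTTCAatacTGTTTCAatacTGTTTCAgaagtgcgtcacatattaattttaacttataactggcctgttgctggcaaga
FUS1 holds 2 matches and PRM1 holds 3, whose first bases lie between 181 and 159 bases before its start codon. In this window 11 of the 19 pheromone-response genes hold TGAAACA on either strand, against 6.06% of the 5626 tested ORFs with a window. The share was 4.43% among genes higher in dal80Δ and 11.2% among genes lower in dal80Δ.

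**Figure D2:**
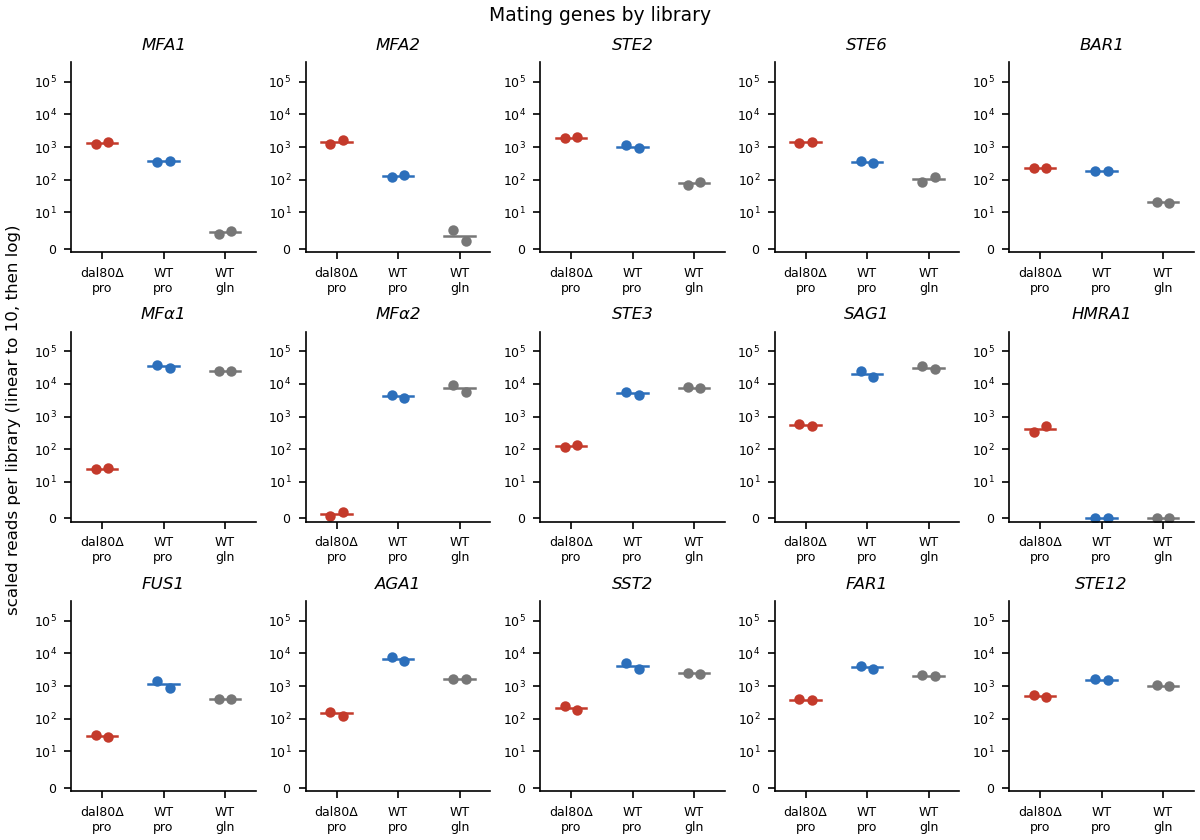
Scaled reads per library of 15 mating genes on an axis that is linear to 10 and logarithmic above, for dal80Δ in proline, wild type in proline and wild type in glutamine from left to right (n = 2 each). Points are libraries. STE3, SAG1 and the α-factor genes separate dal80Δ from both wild-type groups, whereas STE2, BAR1 and the a-factor genes are lowest in wild type in glutamine.

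Among the other GATA factor genes, an activator gene fell and the other repressor gene rose. GLN3, an activator, had 628 and 572 scaled reads in dal80Δ, against 1424 and 1314 in wild type (log2 fold change -1.19 ± 0.12, adjusted p = 0.00040). GZF3, the other GATA repressor, had 1833 and 1736 in dal80Δ, against 832 and 666 in wild type (1.26 ± 0.14, adjusted p = 0.00084). The call of GZF3 was lost without either dal80Δ library, with adjusted p of up to 0.0169. GAT1, the second activator, had 3897 and 3634 scaled reads in dal80Δ, against 5380 and 5027 in wild type, and was not called (-0.47 ± 0.12, adjusted p = 0.024). URE2, whose product holds Gln3 back, had 447 and 460.4 in dal80Δ, against 723 and 734 in wild type, below the fold threshold (-0.68 ± 0.11).

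Of 12 genes for pathway-specific activators of nitrogen use, 1 rose and 2 fell, beside 3.6% higher and 4.43% lower of all tested genes. UGA3, the activator of the GABA genes, had 1962 and 1602 scaled reads in dal80Δ, against 5858 and 5263 in wild type (log2 fold change -1.65 ± 0.14, adjusted p = 0.00019), while wild type in glutamine had 551 and 564. ARO80, the activator of ARO9 and ARO10, had 690.4 and 901 in dal80Δ, against 284 and 223 in wild type (1.65 ± 0.19). PUT3, the activator of proline use, had 859.7 and 793 in dal80Δ, against 1924 and 1911 in wild type (-1.21 ± 0.13). Without dal80Δ replicate 2 the calls of ARO80 (adjusted p = 0.0151) and PUT3 (adjusted p = 0.0123) were lost, and that of UGA3 was kept in every alternative.

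Of the 3 genes of GABA use 2 rose, while UGA3, their activator gene, fell. UGA4, the GABA permease, had 47356 and 43065 scaled reads in dal80Δ, against 907 and 633 in wild type, a log2 fold change of 5.89 ± 0.18 (adjusted p = 2.6e-06). In wild type in glutamine it had 125 and 129, so dal80Δ stood far above both wild-type groups. UGA1, the GABA transaminase, had 4112 and 3985 in dal80Δ, against 1209 and 1065 in wild type (1.83 ± 0.18). Its adjusted p was 0.0104 without dal80Δ replicate 1, which ended the call. UGA2, the dehydrogenase of the last step, had 785 and 834 in dal80Δ, against 944 and 729 in wild type, and the libraries overlapped (-0.04 ± 0.20).

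All 9 genes for the use of allantoin and urea rose, with a median log2 fold change of 2.63 and a range of 1.45 to 3.25. DAL5, the allantoate permease, had 111413 and 113444 scaled reads in dal80Δ, against 18479 and 18160 in wild type (2.62 ± 0.14, adjusted p = 2.4e-05). DAL4, the allantoin permease, had 57997 and 56732 in dal80Δ, against 7295 and 5015 in wild type (3.25 ± 0.21). DUR1,2, the urea amidolyase, had 151764 and 160647 in dal80Δ, against 19950 and 17569 in wild type (3.06 ± 0.24). In wild type in glutamine DAL4 had 71.0 and 92.4 scaled reads, DAL5 had 134 and 154, and DUR1,2 had 5950 and 3954. DAL7, a malate synthase, rose by 3.19 ± 0.14, DAL2, the allantoicase, by 2.85 ± 0.14, and DAL3, the ureidoglycolate lyase, by 2.64 ± 0.14 on the log2 scale. From 7 to 8 of the 9 kept their call when a proline library was left out. The call of DAL1 was lost in each of these 4 fits, and that of DUR3 in all of them but the fit without wild-type proline replicate 1. Of these genes 6 stand side by side on chromosome 9 (DAL1, DAL4, DAL2, DCG1, DAL7 and DAL3, 406260 to 415617), the longest of 13 runs of at least 3 neighbouring ORFs that were called in the same direction.

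The proline genes, which the medium itself makes the cells use, were not called. PUT1, the proline oxidase, had 33866 and 43723 scaled reads in dal80Δ, against 29005 and 28142 in wild type (log2 fold change 0.43 ± 0.21, adjusted p = 0.16), and 106 and 154 in wild type in glutamine. PUT2, the next enzyme, differed by 0.11 ± 0.18. PUT4, the proline permease, had 13491 and 13149 in dal80Δ, against 5415 and 4768 in wild type. Its libraries did not overlap and its log2 fold change was 1.39 ± 0.43, but its adjusted p of 0.046 missed the threshold, and it was called when the 4 proline libraries were fitted alone.

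Of 8 genes for the breakdown of arginine, asparagine and serine 6 rose, of which 4 are the ASP3 copies, and 5 rose in each fit without a proline library. CHA1, the serine and threonine deaminase, had 730.0 and 686 scaled reads in dal80Δ, against 144 and 126 in wild type (log2 fold change 2.39 ± 0.13, adjusted p = 2.9e-05). The 4 ASP3 copies, for a cell wall asparaginase, rose by 2.16 to 2.20, and these near-identical genes share reads, so they are best read as a single gene: ASP3-1 had 31444 and 36676 in dal80Δ, against 8286 and 6971 in wild type.

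Permease genes for other nitrogen compounds rose or were not called. Of 19 amino acid permease genes 7 rose and none fell (4 or 5 rose in the fits without a proline library). AGP1, a permease of broad range, had 15082 and 15058 scaled reads in dal80Δ, against 756 and 646 in wild type (log2 fold change 4.43 ± 0.14, adjusted p = 3.1e-06). It differs from the allantoin genes in its level in glutamine, where wild type had 23932 and 23818. The same held for MUP1, the methionine permease, with 5540 and 4924 in dal80Δ, against 414 and 728 in the wild-type proline libraries, while wild type in glutamine had 24427 and 25448. DIP5, the permease of acidic amino acids, had 71543 and 73517 in dal80Δ, against 7920 and 8467 in wild type, and was at 129 and 245 in glutamine. GAP1, the general permease, had 184624 and 196335 in dal80Δ, against 71073 and 68427 in wild type (1.45 ± 0.24, adjusted p = 0.0047). Per base of ORF it was the densest of the called genes in dal80Δ, at 105 scaled reads per nucleotide, against 38.6 in wild type. Its call was lost when any 1 of the 4 proline libraries was left out (adjusted p of up to 0.0381) and without the filter on low genes, while those of AGP1, MUP1 and DIP5 were kept.

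The peptide transporter genes all rose. PTR2, for di- and tripeptides, had 7659 and 8662 scaled reads in dal80Δ, against 223 and 216 in wild type (log2 fold change 5.21 ± 0.20, adjusted p = 5.8e-06), and 2857 and 4328 in wild type in glutamine. OPT2 rose by 1.96 ± 0.16 and OPT1, which also carries glutathione, by 1.82 ± 0.14, and the calls of all 3 were kept in every alternative. Among 6 genes for ammonium permeases and exporters 2 rose, beside 3.6% higher of all tested genes. MEP1 had 7840 and 7943 in dal80Δ, against 2922 and 2507 in wild type (1.54 ± 0.15). MEP2, the high-affinity permease and sensor, had 84334 and 93933 in dal80Δ, against 44432 and 37788 in wild type (1.12 ± 0.21, adjusted p = 0.0077), and its call was lost when any 1 of the 4 proline libraries was left out, with ORF totals for scaling, without the filter on low genes and with the replicate number as a block.

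**Figure D3:**
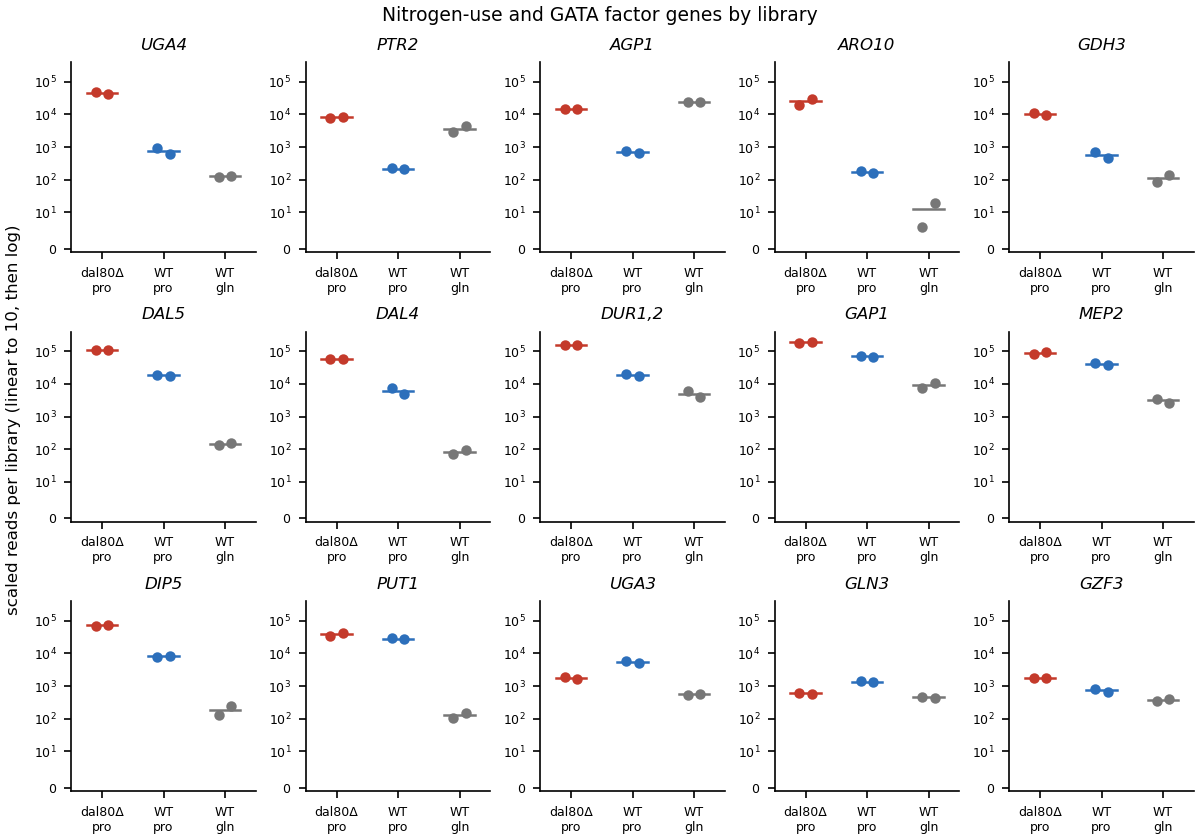
Scaled reads per library of 15 genes of nitrogen use and its control, on an axis that is linear to 10 and logarithmic above, for dal80Δ in proline, wild type in proline and wild type in glutamine from left to right (n = 2 each). UGA4, ARO10 and GDH3 were high in dal80Δ alone, AGP1 and PTR2 were low in wild type in proline alone, and UGA3 and GLN3 were highest in wild type in proline.

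Glutamate stands at the centre of nitrogen metabolism, and both NADP-dependent glutamate dehydrogenase genes rose. GDH1 had 53377 and 54896 scaled reads in dal80Δ, against 9542 and 8921 in wild type (log2 fold change 2.55 ± 0.18, adjusted p = 8.8e-05). GDH3, the second isoenzyme, had 10841 and 9781 in dal80Δ, against 687 and 473 in wild type (4.17 ± 0.26, adjusted p = 4.8e-05). The other route was not called: GLT1, the glutamate synthase, had 41645 and 44041 in dal80Δ, against 40199 and 38544 in wild type, and GLN1, the glutamine synthetase, had 22535 and 24957, against 22172 and 26701. GDH2, which releases ammonium from glutamate, had 6637 and 9075 in dal80Δ, against 10130 and 14340 in wild type, and missed the threshold (-0.63 ± 0.24, adjusted p = 0.083).

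The Ehrlich pathway turns amino acids into fusel alcohols, and its aromatic branch gave the largest rises outside the mating cassettes. ARO10, the phenylpyruvate decarboxylase, had 19375 and 30922 scaled reads in dal80Δ, against 188 and 159 in wild type (log2 fold change 7.14 ± 0.44, adjusted p = 4.7e-05). ARO9, the aromatic aminotransferase, had 11225 and 20544 in dal80Δ, against 117 and 189 in wild type (6.67 ± 0.58). PDC6, a minor pyruvate decarboxylase, had 10640 and 4930 in dal80Δ, against 220.1 and 255 in wild type (4.93 ± 0.33). Replicates of dal80Δ differed more for these genes than for the permeases, but no dal80Δ value came near those of wild type. The 6 other genes of the list were not called and their log2 differences were negative.

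Genes of amino acid synthesis went the other way. All 10 genes of arginine synthesis fell, with a median log2 fold change of -2.05 and a range of -3.20 to -1.28, and 9 of them kept their call in each fit that left out a proline library. ARG5,6, for 2 steps from glutamate to ornithine, had 4064 and 5930 scaled reads in dal80Δ, against 46974 and 43091 in wild type (-3.20 ± 0.23, adjusted p = 8.8e-05). ARG3, the ornithine carbamoyltransferase, had 1538 and 2534 in dal80Δ, against 19381 and 14774 in wild type (-3.10 ± 0.25). ARG1, the argininosuccinate synthetase, had 13208 and 16251 in dal80Δ, against 62152 and 62294 in wild type (-2.09 ± 0.20). In wild type in glutamine ARG3 had 1311 and 1068 and ARG1 had 12128 and 9655, below the dal80Δ values in proline, while ARG5,6 had 10646 and 8275, above them.

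In the remaining pathways some genes fell and others were not called. In histidine synthesis 4 of 6 genes fell, with HIS5 at 1964 and 2026 scaled reads in dal80Δ, against 8720 and 8762 in wild type (log2 fold change -2.13 ± 0.14), and 2 or 3 fell with a proline library left out. Of the aromatic genes 8 of 11 fell, led by ARO3, which starts the pathway, with 2212 and 2601 in dal80Δ, against 13433 and 14408 in wild type (-2.54 ± 0.16). Here 4, 5, 6 and 5 fell without dal80Δ replicate 1, dal80Δ replicate 2, wild-type replicate 1 and wild-type replicate 2 of the proline libraries. Of the branched-chain genes 5 of 9 fell (1, 2, 3 and 3 in the same fits). LEU4, which starts leucine synthesis, had 4490 and 6370 in dal80Δ, against 30856 and 31236 in wild type (-2.54 ± 0.21), whereas LEU1 and LEU2, the next steps, had log2 differences of 0.51 ± 0.18 and 0.31 ± 0.15 and were not called. In lysine synthesis 5 of 8 genes fell with ORF totals for scaling, and 3 with TMM factors, edgeR or DESeq2, LYS2 among them. The main fit had 2 falls among the 8, LYS5 and LYS1. None of them was called without dal80Δ replicate 1 or dal80Δ replicate 2, and 1 was called without either wild-type library. In the aspartate family with asparagine and serine 5 of 12 genes fell (3, 4, 3 and 3). Among these were HOM3 (-1.58 ± 0.14) and HOM2 (-2.04 ± 0.21), the first steps of the aspartate branch, and ASN2, an asparagine synthetase (-2.04 ± 0.15).

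**Figure D4:**
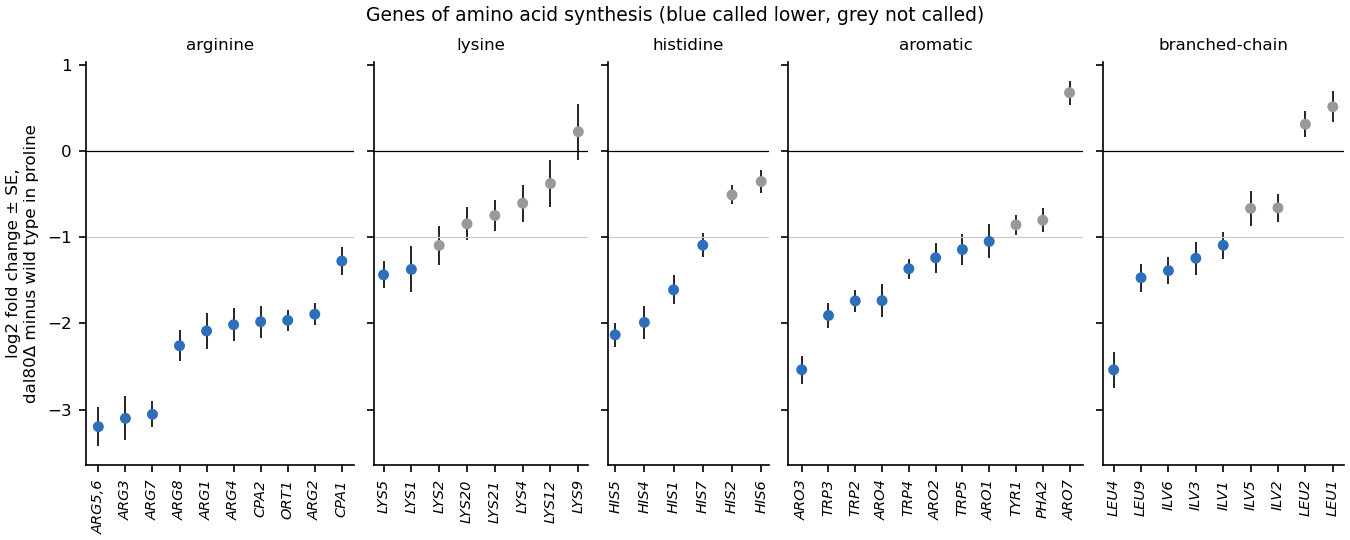
Log2 fold change of dal80Δ minus wild type in proline with its standard error (limma) for genes that make arginine, lysine, histidine, aromatic amino acids and branched-chain amino acids. Each point is a gene, and the lines mark 0 and the fold threshold of -1. All 10 arginine genes lie below -1, whereas LYS9, ARO7, LEU2 and LEU1 lie above 0.

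Many of these genes belong to general amino acid control, in which the activator Gcn4 binds TGACTC. GCN4 itself had 15711 and 14895 scaled reads in dal80Δ, against 23807 and 21528 in wild type, below both thresholds (log2 fold change -0.57 ± 0.18, adjusted p = 0.0497), and its control is known to lie largely in translation, which RNA levels do not show. PCL5, a cyclin that directs the breakdown of Gcn4 and is also a Gcn4 target, had 1939 and 1767 in dal80Δ, against 11700 and 10837 in wild type (-2.60 ± 0.14, adjusted p = 2.1e-05). It was the only one called in a list of 11 regulator genes. Beside PCL5, GCN4, GCN2, GCN1 and GCN20 this list holds LYS14, LEU3, BAS1, MET4, MET31 and MET32, some of which regulate single pathways. MET32 was called higher with DESeq2, with the replicate number as a block and with the 4 proline libraries alone.

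The stretches from 350 to 101 bases before the start codon of ARG1, ARG5,6 and SNZ1 are shown because they hold more than 1 copy of TGACTC, given in capitals with its other-strand form GAGTCA.
ARG1 (chr15:218861-219110, plus strand): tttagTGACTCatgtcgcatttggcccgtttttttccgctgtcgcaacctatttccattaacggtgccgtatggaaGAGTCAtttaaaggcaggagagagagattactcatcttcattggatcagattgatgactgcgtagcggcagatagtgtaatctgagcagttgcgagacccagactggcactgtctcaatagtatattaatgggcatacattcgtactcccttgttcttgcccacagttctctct
ARG5,6 (chr5:295060-295309, plus strand): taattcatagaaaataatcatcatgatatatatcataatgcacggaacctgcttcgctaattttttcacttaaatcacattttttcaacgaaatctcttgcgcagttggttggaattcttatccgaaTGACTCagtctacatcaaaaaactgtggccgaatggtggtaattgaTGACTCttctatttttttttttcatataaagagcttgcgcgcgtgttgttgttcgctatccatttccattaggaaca
SNZ1 (chr13:458058-458307, plus strand): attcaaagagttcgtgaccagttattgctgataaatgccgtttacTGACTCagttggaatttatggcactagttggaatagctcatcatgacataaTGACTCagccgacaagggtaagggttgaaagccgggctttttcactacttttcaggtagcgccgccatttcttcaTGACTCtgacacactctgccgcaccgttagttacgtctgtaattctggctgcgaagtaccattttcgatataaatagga
In the same window TGACTC was found on either strand of 26.8% of the genes lower in dal80Δ (67 of 250, 95% exact binomial interval 21.4 to 32.7%), of 3.94% of the genes higher in dal80Δ and of 7.27% of all tested ORFs. Of the arginine genes 9 of 10 held it, of the histidine genes 4 of 6 and of the aromatic genes 6 of 11. GATAAG was found in 31.5% of the genes higher in dal80Δ (64 of 203, interval 25.2 to 38.4%), in 12.4% of those lower in dal80Δ and in 12.1% of all tested ORFs, and at least 2 copies stood in 9.85%, 0.8% and 1.17% of these sets. Of the allantoin and urea genes 8 of 9 held GATAAG and 5 held at least 2 copies (6 and 4 in the 300 bases before the start codon), and of the arginine genes 5 of 10 held it. GATTAG differed little, at 10.3% of the higher genes, 7.6% of the lower genes and 8.35% of all. The shorter motif GATAA, which every GATAAG contains, was found in 66.5%, 46.4% and 52.6% of these sets. The intervals treat genes as independent draws, although near-identical copies and neighbouring genes can share upstream letters. No test was made of these shares.

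Vitamin B6 genes were among the deepest falls outside the mating genes. SNZ1 and SNO1 are divergent genes whose products together make pyridoxal phosphate. SNZ1 had 367 and 392 scaled reads in dal80Δ, against 4747 and 3838 in wild type (log2 fold change -3.49 ± 0.14, adjusted p = 6.5e-06). SNO1 had 31.4 and 38.0 in dal80Δ, against 755 and 603 in wild type (-4.25 ± 0.20). In wild type in glutamine they had 545 and 521, and 54.0 and 67.8. PDX3, the last enzyme of the vitamin, fell by 1.42 ± 0.13 and THI72, a thiamine transporter gene, by 1.92 ± 0.15. Of the 21 thiamine and vitamin B6 genes 5 fell and 16 were not called, beside 4.43% lower of all tested genes. With DESeq2 or with ORF totals for scaling 8 of the 21 fell.

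Sulfur genes changed in both directions. Of 24 genes for sulfate uptake, methionine and cysteine 9 rose and 3 fell, and the counts were 3 and 2, 6 and 3, 4 and 3, and 7 and 2 without dal80Δ replicate 1, dal80Δ replicate 2, wild-type proline replicate 1 and wild-type proline replicate 2. MET3, the first enzyme of sulfate assimilation, had 4533 and 4059 scaled reads in dal80Δ, against 612 and 659 in wild type (log2 fold change 2.75 ± 0.13, adjusted p = 1.6e-05), and 9177 and 10179 in wild type in glutamine. SUL1, a sulfate permease, had 35241 and 27931 in dal80Δ, against 5725 and 8234 in wild type (2.19 ± 0.24), and its call was lost without dal80Δ replicate 1 (adjusted p = 0.0131). STR2 and STR3, which join and split cystathionine between cysteine and homocysteine, fell: STR3 had 677 and 762 in dal80Δ, against 3047 and 3569 in wild type (-2.20 ± 0.20), and STR2 had 576 and 588, against 2582 and 2567 (-2.14 ± 0.12).

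Outside nitrogen and amino acid metabolism, genes of the cell cycle, of iron uptake and of mannose transfer included several rises. Of 25 genes for G1/S cyclins and DNA replication 14 rose and none fell, beside 3.6% higher of all tested genes. With ORF totals for scaling 10 of the 25 rose. All 25 had a positive log2 difference, as did 3081 of all 5645 tested genes, and the median was 1.10. PCL1, a G1 cyclin, had 769 and 595 scaled reads in dal80Δ, against 61.7 and 111 in wild type (log2 fold change 3.01 ± 0.26, adjusted p = 0.00022). POL30, the sliding clamp of DNA replication, had 567 and 563 in dal80Δ, against 169 and 185 in wild type (1.67 ± 0.13). RNR1, the large subunit of ribonucleotide reductase, had 5298 and 5766 in dal80Δ, against 2029 and 1622 in wild type, and 14827 and 14954 in wild type in glutamine. The count of rises was 6, 8, 10 and 12 without dal80Δ replicate 1, dal80Δ replicate 2, wild-type proline replicate 1 and wild-type proline replicate 2. Of 10 histone genes 7 rose, with a median of 1.18, but only 1 did so without dal80Δ replicate 1, dal80Δ replicate 2 or wild-type proline replicate 1, and 7 without wild-type proline replicate 2. With ORF totals for scaling 5 of the 10 histone genes rose. The linker histone gene HHO1, at 1281 and 1207 in dal80Δ, against 385 and 420.3 in wild type, kept its call throughout. FAR1, whose product holds cells in G1, was low in the same dal80Δ libraries, and its part in the level of the cell cycle genes was not tested.

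Of 21 genes of the iron regulon 8 rose and none fell (3, 6, 3 and 7 in the fits without dal80Δ replicate 1, dal80Δ replicate 2, wild-type proline replicate 1 and wild-type proline replicate 2). FIT2, a cell wall mannoprotein that helps to retain siderophores, had 2754 and 1234 scaled reads in dal80Δ, against 86.4 and 125 in wild type (log2 fold change 4.13 ± 0.35, adjusted p = 0.00019). TIS11, an RNA-binding protein that lowers the messages of iron-using proteins, had 1168 and 627 in dal80Δ, against 43.2 and 98.9 in wild type (3.69 ± 0.41), and its call was lost without dal80Δ replicate 1 (adjusted p = 0.013). SIT1, a siderophore transporter, had 5302 and 3711 in dal80Δ, against 611 and 644 in wild type (2.82 ± 0.25). The first dal80Δ library was the higher of the 2 for each of these.

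The 3 ENA genes, tandem copies for sodium pumps on chromosome 4 (527422 to 538467), all rose and kept their calls. ENA1 had 4913 and 4348 scaled reads in dal80Δ, against 705 and 626 in wild type (log2 fold change 2.80 ± 0.14), and ENA2 and ENA5 rose by 2.25 ± 0.12 and 1.88 ± 0.11. The copies are near-identical, so the share of each is uncertain. Of 24 genes for mannose donors and protein glycosylation 7 rose (2, 3, 3 and 6 without dal80Δ replicate 1, dal80Δ replicate 2, wild-type proline replicate 1 and wild-type proline replicate 2, and 2 with ORF totals for scaling), among them PMI40, the mannose phosphate isomerase, with 1668 and 1864 in dal80Δ, against 643 and 755 in wild type (1.34 ± 0.13).

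Vacuolar and autophagy genes held few calls in number, though the shares of both lists were slightly above the 8.02% of all tested genes. CPS1, a vacuolar carboxypeptidase, had 114403 and 121604 scaled reads in dal80Δ, against 18116 and 16738 in wild type (log2 fold change 2.76 ± 0.19, adjusted p = 7.8e-05), and was the only one called of 9 genes for vacuolar proteases and their inhibitors. All 9 had a log2 difference above 0, with a median of 0.85, and 4 were called with DESeq2 or without either glutamine library. ATG32, the mitophagy receptor, had 3660 and 3354 in dal80Δ, against 1122 and 967 in wild type (1.75 ± 0.15), while ATG41, which acts in the making of autophagosomes, had 648 and 794, against 5207 and 4609 (-2.77 ± 0.15). Of 24 autophagy genes 8 had a log2 difference above 0 and 16 below, and 1 rose and 2 fell, the second being ATG1, which was called without wild-type proline replicate 2 but was lost without either dal80Δ library or without wild-type proline replicate 1.

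Chaperone genes gave 5 falls and no rise among 23, with a median log2 fold change of -0.61. HSP78, the mitochondrial disaggregase, had 1141 and 1236 scaled reads in dal80Δ, against 5611 and 4393 in wild type (-2.06 ± 0.24). None of the 5 was called without dal80Δ replicate 1, dal80Δ replicate 2 or wild-type proline replicate 1, and 4 were called without wild-type proline replicate 2. MRH1, a membrane protein of the rhodopsin-like family, had 2517 and 3555 in dal80Δ, against 13819 and 12616 in wild type (-2.14 ± 0.20), and its call was kept throughout, whereas that of its relative YRO2 was lost without dal80Δ replicate 1, dal80Δ replicate 2 or wild-type proline replicate 1. Of the cell wall glucan and GPI proteins 4 of 23 rose and 4 fell, beside 3.6% higher and 4.43% lower of all tested genes. The falls included FLO11, the flocculin of filamentous growth, with 91.5 and 92.0 in dal80Δ, against 455 and 364 in wild type (-2.14 ± 0.15). Without dal80Δ replicate 1, dal80Δ replicate 2, wild-type proline replicate 1 and wild-type proline replicate 2 these 23 genes had 1 and 2, 0 and 2, 1 and 3, and 4 and 2 rises and falls.

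Most genes in the lists of carbon metabolism were not called, but the share called among alcohol and aldehyde dehydrogenases was above the 8.02% of all tested genes. In glycolysis and fermentation 17 of 18 genes had a log2 difference above 0, with a median of 0.64, against 0.05 over all tested genes. ADH5, an alcohol dehydrogenase, had 414 and 544 scaled reads in dal80Δ, against 3816 and 4639 in wild type (log2 fold change -3.14 ± 0.19, adjusted p = 4.7e-05). The aldehyde dehydrogenase genes ALD4 and ALD6 were called higher only in alternatives, among them the fit of the 4 proline libraries alone. CIT2, the peroxisomal citrate synthase, had 5471 and 5559 in dal80Δ, against 1914 and 1587 in wild type (1.66 ± 0.13), and 344 and 365 in wild type in glutamine. Of 11 genes for alcohol and aldehyde dehydrogenases 2 rose and 2 fell, but 1 rise and 1 fall were called without wild-type proline replicate 2, and only the fall of ADH5 without either dal80Δ library or without wild-type proline replicate 1. IDH2, a subunit of isocitrate dehydrogenase, fell by 1.33 ± 0.22, and its call was lost when any 1 of the 4 proline libraries was left out (adjusted p of up to 0.0441). CIT2 and IDH2 were the only ones called in a list of 20 citrate cycle and glyoxylate genes. Of 18 genes of glycolysis and fermentation 2 rose, TDH2 and HXK2, and neither was called without dal80Δ replicate 1, dal80Δ replicate 2 or wild-type proline replicate 1, nor was TDH2 without wild-type proline replicate 2. TDH3, a glyceraldehyde phosphate dehydrogenase gene of high level, had 126766 and 165508 in dal80Δ, against 103175 and 97958 in wild type and was not called (0.53 ± 0.33). MIG1 was the only one called of 13 genes for hexose transporters and their control, and it was lost without either dal80Δ library or without wild-type proline replicate 1.

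Several large groups held few calls or none, beside the 8.02% of all tested genes that were called. The small lists of peroxisome and meiosis genes, given further below, lay above that share. None of 138 genes of cytosolic ribosomal proteins was called, although 133 of them had a log2 difference above 0 and their median was 0.43, against 0.05 over all tested genes. Of 53 ribosome assembly genes 1 rose, NOP16, with a median of 0.48, and its call was lost without dal80Δ replicate 1, dal80Δ replicate 2 or wild-type proline replicate 1. With ORF totals for scaling these medians were 0.17 and 0.22, and that of all genes was -0.21. No call was made among 24 genes of sterol synthesis, 8 genes of the mitochondrial genome (median -0.49) or 6 of biotin synthesis and uptake. The phosphate regulon had 1 rise among 16 genes, PHM6, which was lost without either dal80Δ library or without wild-type proline replicate 1. Of the same 16 genes 3 were called lower without wild-type proline replicate 1, without either glutamine library and with DESeq2, 2 with edgeR and 4 with ORF totals for scaling. Of 14 genes of peroxisomes and fatty acid oxidation 2 rose and 2 fell, and at most 1 of the 14 was called when any 1 of the 4 proline libraries was left out. Of 16 tested genes of meiosis and sporulation 1 rose and 3 fell, and only NDJ1 fell in each of those fits. The meiosis genes summed to 1725.6 and 1768.8 scaled reads in dal80Δ, against 2996.6 and 2292.8 in wild type. The URA3 marker, mutant in both strains, had 172 and 205 scaled reads in dal80Δ, against 215 and 223 in wild type.

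**Figure D5:**
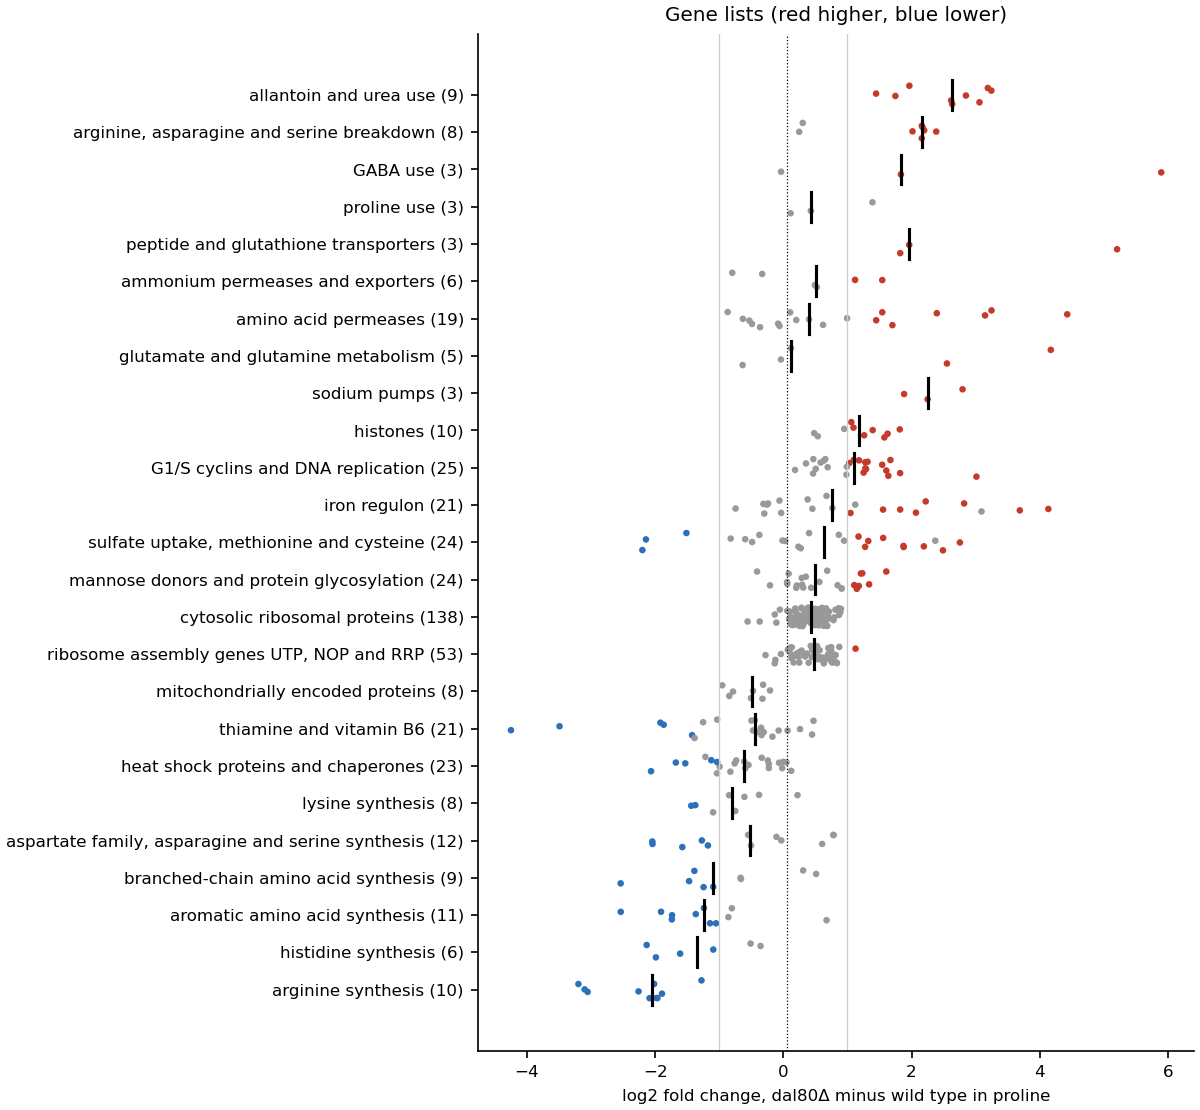
Log2 fold change of dal80Δ minus wild type in proline for the members of 25 gene lists, with the number of members tested in brackets. Each point is a gene, red where called higher, blue where called lower and grey where not called, and black bars are list medians (2.63 for allantoin and urea use at the top, -2.05 for arginine synthesis at the bottom). The dotted line is the median of all tested genes, 0.05, and pale lines mark the fold thresholds.

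The lists do not exhaust the response: 98 of the higher and 153 of the lower genes belong to none of them. The following were chosen after their values were seen. PDR12, an efflux pump for weak acids, had 1491 and 2367 scaled reads in dal80Δ, against 23007 and 24332 in wild type (log2 fold change -3.65 ± 0.23). TMT1, the trans-aconitate methyltransferase, had 476 and 445 in dal80Δ, against 5518 and 5687 in wild type (-3.60 ± 0.11), and 377 and 352 in wild type in glutamine. ARO5 (YGL117W) had 272 and 270.4 in dal80Δ, against 4580 and 4037 in wild type (-3.98 ± 0.14). Among rises, VSB1 had 62443 and 61991 in dal80Δ, against 8423 and 7512 in wild type (2.97 ± 0.16), and BNA2, the first enzyme of the kynurenine route to NAD, had 656 and 665, against 163 and 171 (1.98 ± 0.20).

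The calls were also set beside the classes that the study drew from chromatin immunoprecipitation of tagged Dal80. Of 1122 tested genes with Dal80 at the promoter alone, 5.79% were higher in dal80Δ and 7.84% lower. Of 139 genes bound both upstream and along the coding sequence, 14.4% were higher and 15.1% lower, and of 4347 unbound genes 2.67% were higher and 3.2% lower. Of 205 genes found in earlier nitrogen screens 28.8% were higher in dal80Δ and 8.29% lower. The classes differ in level: the median density in wild type in proline was 5.719 scaled reads per nucleotide for genes with Dal80 at promoter and ORF, 0.8837 for the promoter class and 0.3139 for unbound genes. Calls were also most frequent among the genes of highest level. With tested genes cut into 5 classes of equal size by density, 8.15% were higher in dal80Δ and 7.53% lower in the top class. The lowest class had 2.57% and 3.37% and the next one 1.86% and 3.01%, so the shares did not rise steadily. The part of level in the difference between classes was not tested.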

How the data were processed

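Strand-specific RNA-seq libraries of dal80Δ in proline, wild type in proline and wild type in glutamine (2 biological replicates each) were analysed from the deposited table. Per the methods and the labels, the authors depleted rRNA from total RNA, sequenced paired ends of 50 nt, aligned them with TopHat to build R64 and kept uniquely mapped reads. Deposited counts are whole reads in the first wild-type glutamine library. In the other 5 libraries the authors multiplied the reads by a factor per library, and this deposited signal is called scaled reads here. The factors are 0.683 and 0.551 for dal80Δ, 0.686 and 0.732 for wild type in proline and 1 and 0.983 for wild type in glutamine, and division by them gave whole reads in 100% of values within 1e-06. The authors' densities are scaled reads per nucleotide, and columns of the authors' means were not used for tests. Depth was 12304015 to 19968312 ORF reads per library.

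ORFs that passed filterByExpr (5645 of 5791) were tested with limma (3.58.1, R 4.3.3), with a trend, on log2(scaled reads + 1) over all 6 libraries, with group as the only term and 3 residual and 4.54 prior degrees of freedom. Thresholds were an adjusted p (Benjamini-Hochberg) of at most 0.01 and a fold of at least 2 or at most 0.5. The script was also run on simulated data. These had the same spread for all genes and planted changes of a single size above the fold threshold. They do not bear on calls near the threshold or on genes whose replicates differ strongly. Alternatives were TMM factors or ORF totals, a pseudocount of 8, no filter, the 4 proline libraries alone, edgeR (4.0.16) and DESeq2 (1.42.0) on the recovered reads, a replicate block, other thresholds and leaving out each library. Where a group then has 1 library, it is assumed to vary like the others. Replicate numbers were not taken to pair cultures, because the labels do not say that they do. The correlations of their deviations were 0.0343, 0.182 and -0.2376. With 2 libraries per group the deviations mirror each other, so these values cannot show or exclude pairing.

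Members and gene lists were chosen with earlier results of these data known, and lists are described by counts and medians without a set test. Set for naming were 268 genes: DAL80, its neighbours, GATA factor genes, genes that the study names, the 12 largest rises and falls, and up to 5 called members per list with those not called in lists of 12 genes or fewer. Not all of them are printed, and VMA1 and AFB1 are among those left out. Other genes were named after their values were seen, DAL1, DCG1 and CAN1 among them. Promoter letters were searched on both strands from 350 to 101 bases before the start codon in the R64 genome, because no table of promoters was used here. Of 5786 ORFs found in that annotation, 5754 have the same start and end.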

Additional observations from a re-analysis of the deposited data

Results flagged for a closer look

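The deposited table also holds a transcript feature that spans DAL80 and 127 bases beyond its ORF, which the comparisons above do not use. On these bases alone, that is, the transcript minus the ORF, the dal80Δ libraries had 76.5 and 76.5 scaled reads, against 6.86 and 4.39 in wild type in proline, although the ORF was nearly empty in dal80Δ. Wild type in glutamine had no reads there. The bases run from the end of the ORF to position 507834 of chromosome 11. Reads in dal80Δ thus stood above those of both wild-type groups next to the deletion, and the part of the kanMX cassette in them was not tested.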

How the results depend on the processing

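Against 203 genes higher and 250 lower in dal80Δ, scaling by totals of ORF reads gave 139 and 440, the largest shift between directions, with 137 and 250 of the original calls kept. The other settings on all 6 or on the 4 proline libraries gave 150 to 235 higher and 218 to 284 lower genes: 188 and 266 with TMM factors, 191 and 279 with edgeR, 225 and 280 with DESeq2, 150 and 218 without the filter on low genes. Leaving out 1 library gave 75 to 237 higher and 126 to 284 lower genes. With the replicate number as a block, 167 genes were higher and 230 lower, and 164 and 227 of the original calls were kept. As the numbers are not known to pair cultures, the block is only an alternative. Among the 268 genes set for naming it ended 14 calls and added 1. None of these 268 that was called in either fit turned its direction. In the 300 bases before the start codon, a window chosen after seeing the data, GATAAG was found in 14.9%, GATTAG in 10.7% and GATAA in 61.0% of all tested promoters, and among genes lower in dal80Δ GATAAG was found in 17.2% and GATAA in 61.6%. Genes with few reads are limited by depth: 146 ORFs were not tested.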

Other observations

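Some genes differed strongly between replicates of a group. BIO5, a biotin precursor transporter gene, had 94.9 and 3310 scaled reads in dal80Δ, against 248 and 261 in the wild-type proline libraries, while wild type in glutamine had 507 and 4048. PHO84, the high-affinity phosphate permease, had 799 and 375 in dal80Δ, against 2094 and 11609 in the wild-type proline libraries, and its log2 difference of -3.17 ± 0.72 missed the threshold (limma adjusted p = 0.016). HXT2, a glucose transporter, had 20925 and 19178 in dal80Δ, against 905 and 5381 in wild type, with an adjusted p of 0.020.

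CAN1, the arginine permease, lay just outside the fold threshold, with 32720 and 34985 scaled reads in dal80Δ, against 18679 and 15453 in wild type (log2 difference 0.99 ± 0.17, adjusted p = 0.0055). DLD3, SEC27, CAF20, BUD9 and YGR122W lay just inside it on the higher side, and ULA1, DCI1, RAD4, ISA1 and XBP1 on the lower side, the farthest of them being BUD9 at 1.02 and XBP1 at -1.02. Each of these calls inside the threshold was lost in all of the 4 fits that left out a proline library, except that SEC27 and BUD9 were called without wild-type proline replicate 2 and ISA1 without wild-type proline replicate 1.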
